A study of Mus musculus with 6 samples.

Results

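The ADAM and ADAMTS proteases are zinc metalloproteases of the cell surface and of the extracellular matrix. Members were taken by symbol, as every row named Adam, Adamts or Adamtsl with a number, and 57 of 24421 gene rows matched. They were 33 Adam, 19 Adamts and 5 Adamtsl genes. RNA was sequenced from mouse colon in 2 groups of 3 samples. The DSS group is labelled as chronic colitis after dextran sulfate sodium, an agent that damages the lining of the colon, and the control group is labelled only as control. All 6 samples were labelled as C57BL/6 mice of 7 weeks of age. The series asks about histone acetylation in intestinal inflammation, and expression alone was analysed here. The labels used here give no dose, number of cycles or site along the colon, and do not say that each sample is a different mouse. The spread behind every p-value is that of these libraries alone and could be technical.

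An ADAM protein carries a prodomain, a metalloprotease domain, a disintegrin domain and, in most members, a membrane anchor, and active members cut other membrane proteins just outside the cell, which releases growth factors, cytokines and receptors. ADAMTS proteins lack the anchor, carry thrombospondin repeats, and are secreted to cut proteoglycans, procollagens and other matrix proteins. ADAMTS-like proteins share the repeats and lack the protease domain. In the intestine, ADAM10 is known for Notch receptor cleavage, which the crypt needs, and ADAM17 for release of tumour necrosis factor and of ligands of the epidermal growth factor receptor.

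Levels are in FPKM, a read density corrected for transcript length and for the size of the library, so genes can be compared per length. Each sample held a total of 609544 to 678076 FPKM. Read totals are unknown. All 8 markers of colon epithelium searched for were found in every sample, at a summed 9551 to 17588 FPKM in DSS and at 12400 to 16284 FPKM in control colon. Car1 weighed heavily on the DSS sums, at 1397, 9924 and 5679 FPKM in DSS 1, 2 and 3. Of the 8 markers none was called higher and Krt8 was called lower (limma, adjusted p = 0.0275). The median log2 fold change of the 8 was -0.31, so similar sums do not show similar epithelial content. DSS 1 lay closer to the controls than the other DSS samples, with correlations over tested genes of 0.9315 to 0.9367 against 0.8922 to 0.9092 for DSS 2 and DSS 3. In the fit over all 12348 genes tested, 783 were higher and 316 lower in DSS. These counts fell to 209 and 79 without control 2 and to 213 and 83 without control 3. The median log2 fold change of all genes tested was 0.13, and member changes can be read against it. With median-of-ratios scaling that median was about 0, and the counts became 529 higher and 513 lower. In a piece of colon, fewer cells of a type and less RNA per cell cannot be told apart.

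Adamts1, Adam8 and Adam10 rose in DSS colon, and none of the 16 members tested fell. Adamts1, a secreted proteoglycanase, stood at 3.34 times its control mean. Adam8, a membrane protease known from leukocytes, stood at 6.96 times its control mean from a low level. Adam10, the constitutive sheddase of Notch receptors and cadherins, stood at 1.59 times its control mean. These 3 calls make 18.75% of the members tested, where 6.34% of all genes tested were called higher and 2.56% lower (limma, Benjamini-Hochberg adjusted p under 0.05). Adam8 was under 1 FPKM in every control and entered the test through its DSS values alone, so its call was partly fixed by the filter. Of the other 15 members 2 rose, and of all genes tested that did not enter in that way 5.32% did. These shares are a description. Adam15 alone of the others reached an unadjusted p under 0.05 and lay lower. The median log2 fold change of the 16 members was 0.08.

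The 250 bases before the start of each gene that rose are shown because the 3 genes moved in the same direction and differ in base composition and motifs there. The sequences are from RefSeq on GRCm38.p6, the assembly that mm10 names, 5′ to 3′ on the strand of the gene. Capitals mark matches to the GC box GGGCGG, the TATA box TATAAA or the E-box CACGTG, read on both strands.
Adamts1, chr16:85803114-85803363, minus strand: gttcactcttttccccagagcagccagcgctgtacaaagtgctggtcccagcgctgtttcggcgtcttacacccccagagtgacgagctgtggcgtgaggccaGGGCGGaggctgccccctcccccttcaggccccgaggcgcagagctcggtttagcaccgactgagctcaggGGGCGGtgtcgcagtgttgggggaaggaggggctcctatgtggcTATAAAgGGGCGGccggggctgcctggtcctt
Adam8, chr7:139992563-139992812, minus strand: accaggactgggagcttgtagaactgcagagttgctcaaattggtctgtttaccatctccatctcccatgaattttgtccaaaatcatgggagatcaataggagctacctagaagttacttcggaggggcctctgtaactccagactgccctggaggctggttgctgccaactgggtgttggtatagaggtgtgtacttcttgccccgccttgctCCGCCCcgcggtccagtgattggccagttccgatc
Adam10, chr9:70678732-70678981, plus strand: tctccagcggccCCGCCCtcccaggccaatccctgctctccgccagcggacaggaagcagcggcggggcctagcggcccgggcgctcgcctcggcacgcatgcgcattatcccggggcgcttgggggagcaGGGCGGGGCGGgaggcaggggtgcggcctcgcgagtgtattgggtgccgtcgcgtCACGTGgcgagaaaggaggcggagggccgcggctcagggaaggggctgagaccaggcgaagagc
The Adamts1 window held 3 GC boxes and a TATA box just before the start. Adam8 had a single GC box, and Adam10 had 3, of which 2 share a base, and an E-box. GC content was 65.6% for Adamts1, 52.8% for Adam8 and 74% for Adam10, beside a median of 52.4% over 32817 promoter windows.

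Of the 16 members tested 11 had a promoter in the table, in 13 windows because Adam19 has several starts. GC boxes were in 9 of these 13 windows and in 32.7% of all windows. TATAAA was in the Adamts1 window alone among them and in 12.4% of all windows. The AP-1 motif TGANTCA, bound by Fos and Jun proteins, was in 1 of the 13, at Adam19, and in 6.75% of all windows. An NF-kappaB consensus was in 2 of the 13, at Adam19 and Adamts9, and in 7.25% of all windows. CACGTG was in 2, at Adam10 and Adam19, and in 6.02% of all windows. The cyclic AMP response element TGACGTCA was in none and in 1.55% of all windows. A match describes letters in a window and says nothing of binding there.

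Among membrane ADAMs with an active protease, 7 of 9 members were tested and 2 rose. Adam10, on chromosome 9 from 70678997 to 70780229, stood at 35.5, 35.2 and 37.8 FPKM in DSS 1, 2 and 3. In control 1, 2 and 3 it stood at 20.9, 23.2 and 24.04 FPKM. The DSS samples lay close together and the groups did not overlap. The log2 fold change of Adam10 was 0.65 ± 0.13 SE (limma, adjusted p = 0.0275). Its call was lost without DSS 3, without any 1 of the controls, and with the replicate number as a block, at adjusted p up to 0.101 over all alternatives, with the sign kept in each.

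Adam8, on chromosome 7 from 139978932 to 139992562, stood at 2.44, 2.53 and 4.73 FPKM in the DSS samples and at 0.700, 0.186 and 0.509 FPKM in the controls. Every control was below the 1 FPKM needed for testing. DSS 3 was the highest sample. The log2 fold change of Adam8 was 1.51 ± 0.26 SE (limma, adjusted p = 0.0150), and the call was lost without control 2 or control 3, at adjusted p up to 0.0720. Neutrophil markers were higher in DSS too, and single markers differed in their order over the DSS samples. Their sum was highest in DSS 2 and Adam8 in DSS 3. Csf3r, Cxcr2 and Fpr1 were lowest in DSS 3, while S100a8, S100a9 and Retnlg were lowest in DSS 1 and highest in DSS 2. The 7 markers found summed to 4072 to 6954 FPKM in DSS, against 6.81 to 29.5 FPKM in control colon, where at most 2 of them were listed at 0, and 6 were tested and rose. Of these, Csf3r, Cxcr2 and Fpr1 entered the test through their DSS values alone, and Mpo, at 0.0649 FPKM at most, was not tested. Macrophage markers summed to 601 to 787 FPKM in DSS, against 437 to 545 FPKM in control colon, and Itgam alone rose of 8 tested. Markers of T and natural killer cells summed to 37.8 to 154 FPKM in DSS, against 3.94 to 5.94 FPKM in control colon. All 3 tested rose, of which Nkg7 entered the test through its DSS values alone. The part of these cells in the rise of Adam8 was not tested.

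Adam15, Adam9 and Adam17 were the other abundant members, and none of them passed the test. Adam15, a membrane protease of epithelium and endothelium, stood at 14.9, 6.63 and 17.8 FPKM in the DSS samples and at 21.3, 21.95 and 27.1 FPKM in the controls. All DSS samples of Adam15 lay below every control, and DSS 2 was lowest. Its log2 fold change was -0.89 ± 0.33 SE (limma, adjusted p = 0.133), and it passed in none of the 17 alternatives.

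Adam9, a broadly expressed sheddase, stood at 32.7, 21.8 and 28.1 FPKM in the DSS samples. In the controls it stood at 21.2, 21.3 and 21.3 FPKM. The controls were almost equal, and DSS 2 lay just above them. The log2 fold change of Adam9 was 0.34 ± 0.17 SE (limma, adjusted p = 0.242).

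Adam17, the sheddase of tumour necrosis factor, stood at 4.42, 8.75 and 10.4 FPKM in the DSS samples and at 8.15, 9.80 and 8.87 FPKM in the controls. DSS 1 was the lowest of all samples, and DSS 3 was the highest. The log2 fold change of Adam17 was -0.23 ± 0.28 SE (limma, adjusted p = 0.630), and it turned to 0.09 without DSS 1. The end of Adam17 overlaps Iah1 on the opposite strand, at 52.98 to 66.9 FPKM in DSS and at 26.9 to 40.4 FPKM in control colon. Because strand was not recorded, reads of the overlap cannot be assigned to either gene.

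Within a sample the ratio of FPKM values of a pair of members is unchanged by any scaling that uses a single factor per sample, which quantile normalization does not. The ratio of Adam10 to Adam17 was 8.05, 4.02 and 3.63 in the DSS samples and 2.56, 2.37 and 2.71 in the controls. The ratio of Adam9 to Adam15 was 2.20, 3.30 and 1.58 in the DSS samples and 0.997, 0.972 and 0.784 in the controls. Neither pair of groups overlapped. Both pairs were chosen after their values were seen and are given without a test.

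Adam19 and Adam33 were lower in level. Adam19, a protease known from developing heart and immune cells, stood at 2.74, 2.43 and 2.91 FPKM in DSS and at 1.92, 1.94 and 2.22 FPKM in control colon. Its groups did not overlap, and its log2 fold change was 0.29 ± 0.16 SE (limma, adjusted p = 0.275). Adam33, a mesenchymal protease, stood at 0.720, 0.404 and 2.76 FPKM in DSS and at 1.92, 2.14 and 1.60 FPKM in control colon. DSS 3 was above the controls and the other DSS samples were below them (limma log2 fold change -0.47, SE 0.35, adjusted p = 0.429). The sum of smooth muscle markers was in the same order over the DSS samples, as was that of fibroblast markers. Smooth muscle markers summed to 1745, 1178 and 3334 FPKM in DSS 1, 2 and 3, against 3513 to 4446 FPKM in control colon. Fibroblast markers summed to 951, 580 and 989 FPKM in DSS 1, 2 and 3, against 507 to 631 FPKM in control colon. In DSS 1 the fibroblast sum was above every control and Adam33 was below every control. Single fibroblast markers differed in order, with Dcn highest in DSS 1. The part of either cell type in the Adam33 values was not tested.

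Adam12 and Adam28, the remaining active members, did not reach the level for testing. Adam12, a protease of mesenchyme and regenerating muscle, stood at 0.565, 0.253 and 1.53 FPKM in DSS and at 0.113, 0.0710 and 0.0313 FPKM in control colon. Every DSS sample of Adam12 lay above every control, and without the filter on low values its adjusted p was 0.179 (limma). Stretches of its transcripts have near-identical copies at other genes, so its level is uncertain. Adam28, of lymphocytes and epithelium, reached 0.0947 FPKM at most and was listed at 0 in the controls.

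**Figure D1:**
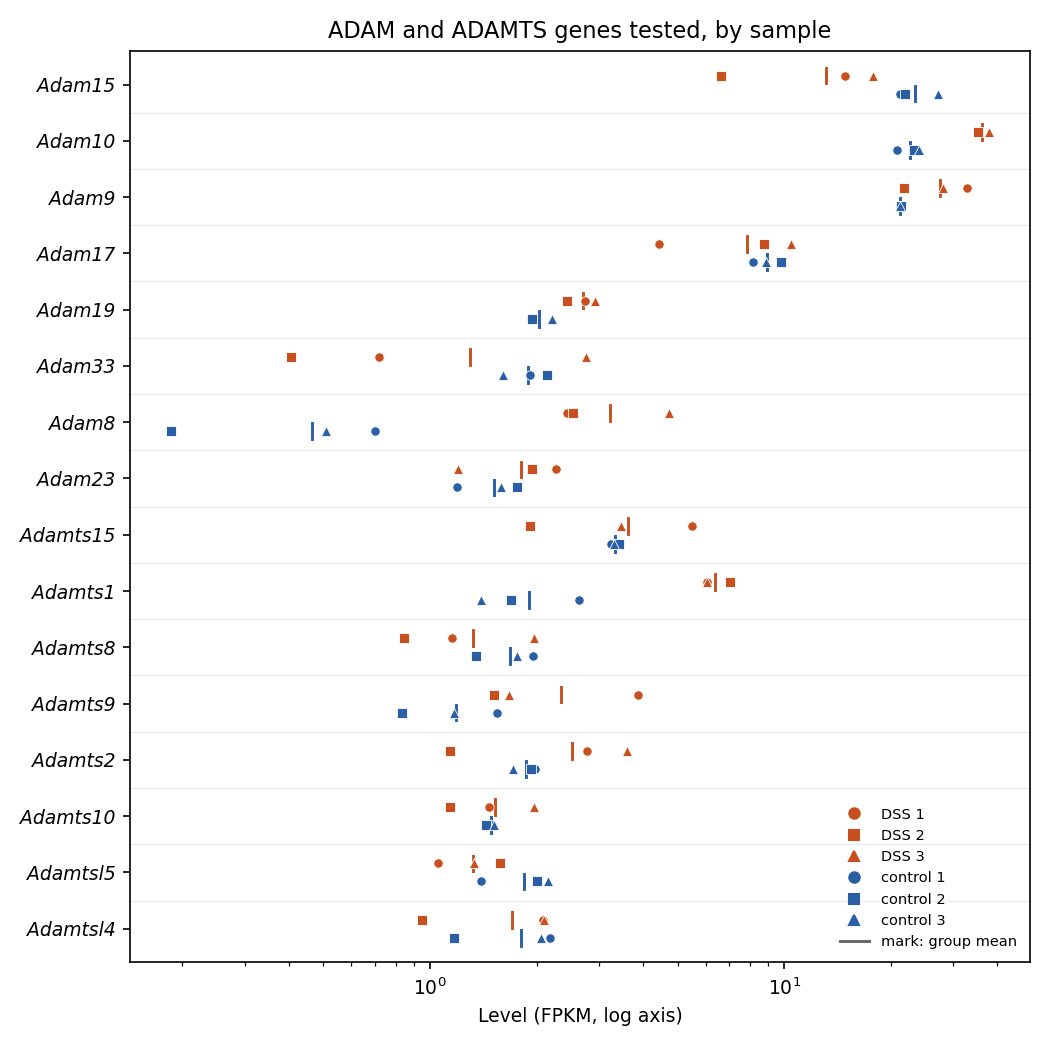
Level of each tested member in FPKM on a log axis, by sample, with DSS in orange, control in blue, a marker shape for each sample number and a vertical mark at each group mean. Adam10, Adam8 and Adamts1, which were called, and Adam9 and Adam19, which were not, show DSS samples to the right of every control. Adam15 shows them to the left.

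**Figure D2:**
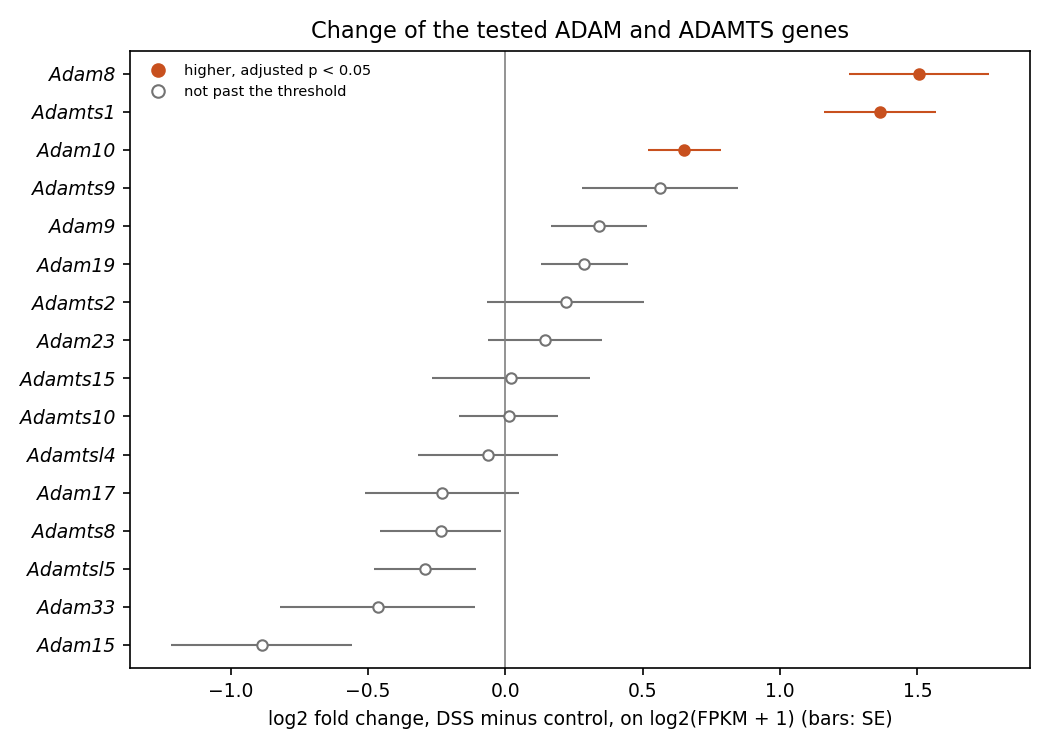
Log2 fold change of the 16 tested members, DSS minus control, on the log2(FPKM + 1) scale, with bars of 1 SE and filled points for an adjusted p under 0.05. Adam8, Adamts1 and Adam10 are the filled points, at 1.51, 1.36 and 0.65.

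Among the ADAMs without an active protease that are known from the nervous system, Adam23 was tested and did not pass. Adam23, a neuronal adhesion protein, stood at 2.26, 1.95 and 1.20 FPKM in DSS and at 1.19, 1.76 and 1.59 FPKM in control colon, and the groups overlapped (limma log2 fold change 0.14, SE 0.21, adjusted p = 0.691). Adam22 lay between 0.315 and 0.635 FPKM and Adam11 between 0.155 and 0.615 FPKM over the 6 samples. Both serve as partners of secreted neuronal ligands or as adhesion proteins, and their groups overlapped.

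Of the 7 secreted proteoglycanases 4 were tested, and Adamts1 rose. Adamts1 lies on chromosome 16 from 85793827 to 85803113. It stood at 6.04, 7.02 and 6.07 FPKM in the DSS samples and at 2.63, 1.70 and 1.39 FPKM in the controls. The DSS samples were close together and all above the controls, of which control 1 was highest. The log2 fold change of Adamts1 was 1.36 ± 0.20 SE (limma, adjusted p = 0.00947). The call was lost without control 2 or control 3, at adjusted p up to 0.0555, and held in the other 15 alternatives.

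Adamts15 was the most abundant ADAMTS member in control colon. It stood at 5.49, 1.91 and 3.46 FPKM in DSS and at 3.25, 3.41 and 3.31 FPKM in control colon. The DSS samples lay on both sides of the controls (limma log2 fold change 0.02, SE 0.29, adjusted p = 0.970), and the sign turned under the other 3 scalings. In the order of mean level Adamts1 was in place 7 in control colon and place 5 in DSS, where it was above Adamts15 in every sample.

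Adamts9, a relative of Adamts1 that also acts in secretion from the endoplasmic reticulum, stood at 3.86, 1.51 and 1.67 FPKM in DSS and at 1.54, 0.836 and 1.17 FPKM in control colon. DSS 1 was far above the rest, and the groups overlapped (limma log2 fold change 0.56, SE 0.28, adjusted p = 0.240). Adamts8, which is known to limit angiogenesis, stood at 1.15, 0.842 and 1.96 FPKM in DSS and at 1.95, 1.35 and 1.76 FPKM in the controls (limma log2 fold change -0.23, SE 0.22, adjusted p = 0.526).

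Adamts4 and Adamts5, the main aggrecanases of cartilage, stayed under the level for testing. Adamts4 stood at 2.16, 0.949 and 0.742 FPKM in DSS and at 0.855, 0.311 and 0.199 FPKM in control colon. Its groups overlapped through control 1 and DSS 3. Adamts5 stood at 0.872, 0.671 and 0.797 FPKM in DSS and at 0.314, 0.570 and 0.421 FPKM in control colon, with no overlap. Adamts5 lies 53.06 kb from Adamts1 on chromosome 16 and without the filter had an adjusted p of 0.196 (limma). Adamts20 was listed at 0 in the DSS samples and reached 0.0395 FPKM at most in the controls.

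None of the 3 procollagen N-propeptidases, which trim fibrillar procollagens, passed the test. Adamts2 was tested, at 2.78, 1.14 and 3.61 FPKM in DSS and at 1.98, 1.93 and 1.71 FPKM in control colon. DSS 2 lay below the controls and the other DSS samples above (limma log2 fold change 0.22, SE 0.29, adjusted p = 0.657). The sum of fibroblast markers was in the same order over DSS samples, as was that of smooth muscle markers. Fibroblast markers summed to 951, 580 and 989 FPKM in DSS 1, 2 and 3 and to 507 to 631 FPKM in control colon. Single fibroblast markers differed in order. Col3a1 was highest in DSS 3, at 268, 115 and 359 FPKM, and Dcn in DSS 1, at 505, 349 and 428 FPKM. The part of either cell type in the Adamts2 values was not tested. Adamts3 stood at 0.535, 0.448 and 0.807 FPKM in DSS and at 0.247, 0.192 and 0.124 FPKM in control colon, and Adamts14 at 0.233, 0.180 and 0.172 FPKM in DSS and at 0.118, 0.0413 and 0.0429 FPKM in control colon. Every DSS sample of both lay above every control, under the level for testing. Without the filter the adjusted p was 0.0858 for Adamts3 and 0.121 for Adamts14 (limma).

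The other ADAMTS members were low. Adamts10, a protease linked to fibrillin microfibrils, was the one tested, at 1.47, 1.14 and 1.96 FPKM in DSS and at 1.49, 1.44 and 1.52 FPKM in the controls (limma log2 fold change 0.01, SE 0.18, adjusted p = 0.974, with its sign turned under the other 3 scalings). Adamts19 stood at 0.343, 1.18 and 0.725 FPKM in DSS and at 0.233, 0.410 and 0.299 FPKM in control colon. Adamts7 and Adamts12, which cut cartilage oligomeric matrix protein, reached 0.665 and 0.177 FPKM at most. Adamts13, the von Willebrand factor protease made mainly in liver, reached 0.169 FPKM at most. Adamts6, Adamts16, Adamts17 and Adamts18 reached 0.207, 0.0799, 0.376 and 0.0376 FPKM. The groups of these 8 members overlapped.

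Of the 5 ADAMTS-like genes Adamtsl4 and Adamtsl5, both linked to fibrillin microfibrils, were tested and did not pass. Adamtsl4 stood at 2.09, 0.948 and 2.09 FPKM in DSS and at 2.19, 1.17 and 2.06 FPKM in the controls (limma log2 fold change -0.06, SE 0.25, adjusted p = 0.898). Adamtsl5 stood at 1.05, 1.57 and 1.33 FPKM in DSS and at 1.39, 2.00 and 2.15 FPKM in the controls (limma log2 fold change -0.29, SE 0.19, adjusted p = 0.345). Adamtsl2, on chromosome 2 from 27079379 to 27108981, binds latent transforming growth factor beta binding protein. It stood at 0.619, 0.536 and 0.921 FPKM in DSS and at 0.0583, 0 and 0.148 FPKM in control colon. All DSS samples were above the controls, yet under 1 FPKM, so the gene was not tested. Without the filter Adamtsl2 passed, at adjusted p = 0.0315 (limma), in a fit where 2.82% of 19058 rows were called higher and 1.32% lower. Adamtsl1 and Adamtsl3 overlapped between groups, with highest values of 0.851 and 0.537 FPKM.

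**Figure D3:**
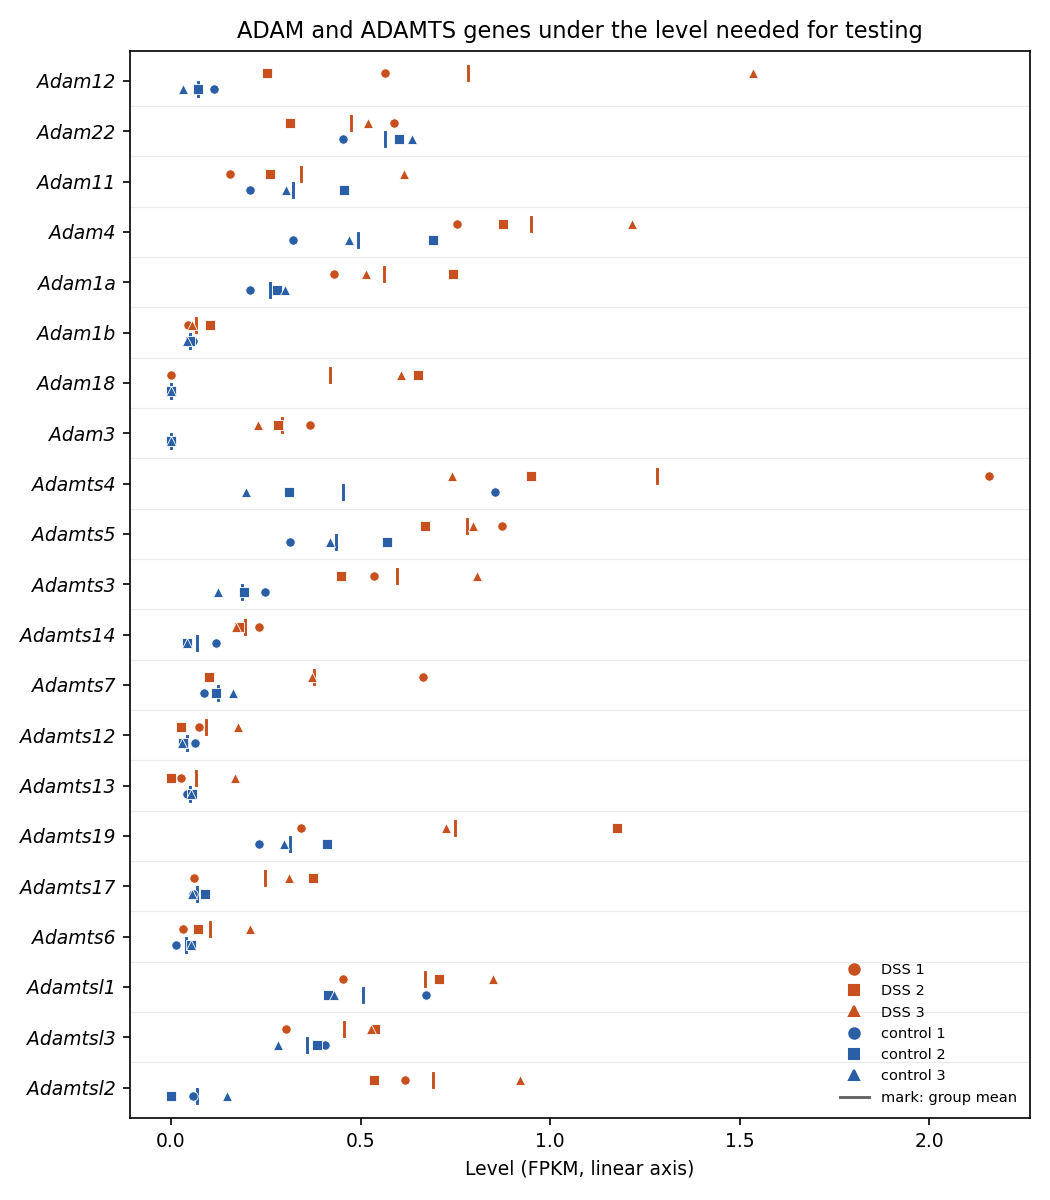
Level in FPKM on a linear axis, by sample, of the untested members that reached 0.1 FPKM in any sample, with DSS in orange, control in blue and a vertical mark at each group mean. Adamtsl2, Adam3, Adamts3, Adam12, Adam4, Adam1a, Adamts5 and Adamts14 show every DSS sample to the right of every control.

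None of the 21 ADAM members known from testis, epididymis or other reproductive tissue reached the level for testing, and 10 of them were listed at 0 in all 6 samples. These 10 were Adam2, Adam7, Adam20, Adam24, Adam25, Adam26a, Adam26b, Adam29, Adam34 and Adam39. Adam21, Adam32, Adam5, Adam30, Adam6a and Adam6b stayed under 0.1 FPKM in every sample. Adam32 was listed at 0 in the DSS samples and reached 0.0242 FPKM at most in the controls.

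Adam3 and Adam18, of the sperm surface and neighbours on chromosome 8, were listed at 0 in the 3 controls. Adam3 stood at 0.367, 0.283 and 0.229 FPKM in DSS 1, 2 and 3. Adam18 was listed at 0 in DSS 1 and stood at 0.652 and 0.607 FPKM in DSS 2 and 3. Without the filter Adam3 passed, at adjusted p = 0.0193, and Adam18 did not, at adjusted p = 0.215 (limma). Both genes entered that fit through their DSS values alone. Because a listed 0 can be a failed estimate, no fold is given.

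All genes of this run lie on the minus strand. Adam18 lies from 24602246 to 24674755 and Adam3 from 24677225 to 24725852, so that Adam3, Adam18 and Ido1 follow each other in the direction of transcription. Ido1, the tryptophan-degrading enzyme indoleamine dioxygenase and the next measured gene, is 5.237 kb beyond Adam18. Ido1 rose, from 9.45, 5.30 and 4.14 FPKM in the controls to 89.3, 157 and 58.7 FPKM in DSS 1, 2 and 3 (limma log2 fold change 3.77, SE 0.40, adjusted p = 0.00281). Adam5 and Adam32, on the far side of Adam3, were listed at 0 in every DSS sample. Whether RNA of Ido1 has a part in the Adam3 and Adam18 values was not tested.

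**Figure D4:**
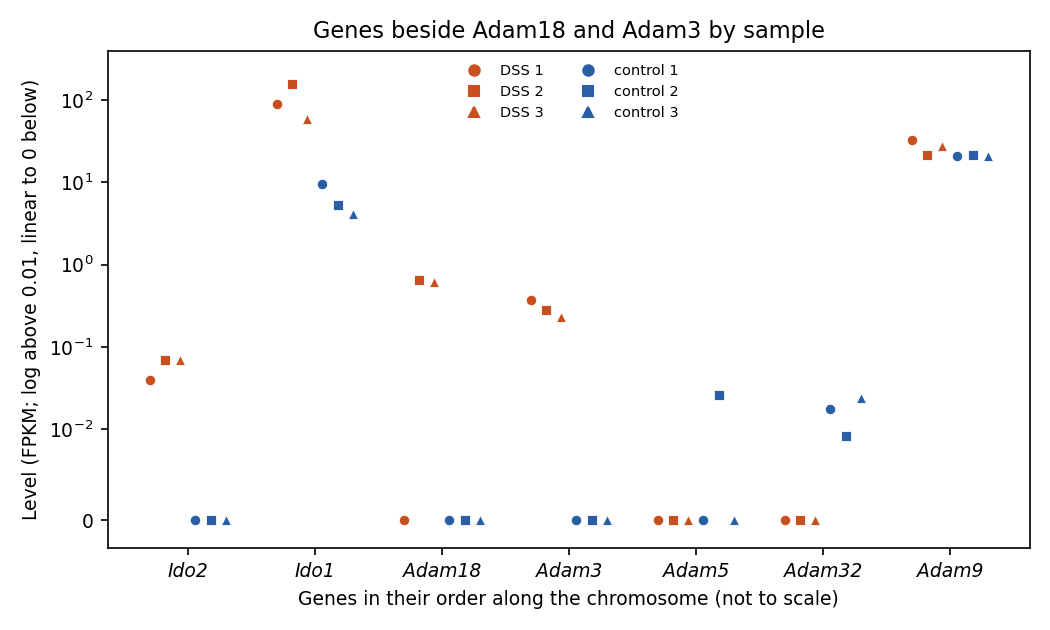
Level of Ido2, Ido1, Adam18, Adam3, Adam5, Adam32 and Adam9 in FPKM, in their order along chromosome 8, by sample, on an axis that is logarithmic above 0.01 FPKM and linear below. Adam3 is above 0 in the 3 DSS samples and at 0 in the controls, while Adam5 and Adam32 are at 0 in DSS.

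Adam4 and Adam1a stood above their controls at low levels, and both overlap a more abundant gene on their own strand. Adam4 stood at 0.755, 0.876 and 1.22 FPKM in DSS and at 0.322, 0.690 and 0.470 FPKM in control colon. The gene around it, Cox16, had 36.4 to 65.4 FPKM in DSS, against 42.3 to 49.5 FPKM in control colon. Adam1a stood at 0.430, 0.744 and 0.514 FPKM in DSS and at 0.209, 0.279 and 0.300 FPKM in control colon. It overlaps Mapkapk5, at 26.6 to 35.4 FPKM in DSS and at 24 to 28.5 FPKM in control colon. Adam1a shares 1205 bases at 99.7% identity with Adam1b, which reached 0.102 FPKM at most, so values of both are uncertain.

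Over the whole family 13 members had every DSS sample above every control and 3 had every DSS sample below. Of the 47 members above 0 in at least 1 sample these are 27.7% and 6.38%, where 19.9% and 8.26% of all such rows lay apart in the same directions. Among the 16 tested members 5 lay above and 1 below, where 25.6% and 9.51% of all genes tested did. The shares are given as a description. DSS 2 was the lowest DSS sample for 11 of the 16 tested members and DSS 3 the highest for 10.

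In control colon Adam15, Adam10 and Adam9 were the most abundant members, at 23.4 ± 3.19, 22.7 ± 1.65 and 21.3 ± 0.0727 FPKM (SD, n = 3 each), and their ranges overlapped. Adam17 followed at 8.94 ± 0.828 FPKM (SD, n = 3), below each of them in every sample. In DSS colon Adam10 led at 36.2 ± 1.42 FPKM, above Adam9 at 27.6 ± 5.47 FPKM and Adam15 at 13.1 ± 5.78 FPKM (SD, n = 3 each), without overlap between these 3. Adam17 at 7.87 ± 3.10 FPKM overlapped Adam15 there. These 4 genes made 67.2% to 68.8% of the summed FPKM of the family in DSS and 72.8% to 76.4% in control colon. The ADAMTS and ADAMTS-like members together summed to 30.3, 21.9 and 29.0 FPKM in DSS and to 19.6, 16.6 and 17.4 FPKM in the controls, without overlap. Adamts1, which was called higher, is part of that sum. The ADAM members summed to 98.8, 83.4 and 111 FPKM in DSS and to 78.6, 84.6 and 89.0 FPKM in the controls, with overlap.

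Among inhibitors of these proteases Timp1 rose, and the other 5 of 6 tested did not pass. Timp1, a secreted inhibitor of matrix metalloproteinases and of ADAM10, stood at 109.7, 35.9 and 145 FPKM in DSS and at 8.50, 4.27 and 4.63 FPKM in the controls (limma log2 fold change 3.68, SE 0.52, adjusted p = 0.00955). The call was lost without control 2 or control 3, at adjusted p up to 0.0519. Timp3, the matrix-bound inhibitor of ADAM17 and of aggrecanases, stood at 40.4, 21.2 and 21.2 FPKM in DSS and at 36.9, 26.99 and 24.9 FPKM in the controls (limma log2 fold change -0.14, SE 0.28, adjusted p = 0.777). A2m, the plasma protease inhibitor alpha-2-macroglobulin, stood at 2.83, 1.69 and 15.5 FPKM in DSS and at most at 0.0125 FPKM in the controls (limma log2 fold change 2.46, SE 0.63, adjusted p = 0.0572), and it too entered the test through DSS alone. DSS 3 was far above the other DSS samples of A2m, and the gene passed in 5 of 16 alternatives. Timp2 lay below its controls in every DSS sample, at 17.9 to 27.2 against 28.2 to 31.5 FPKM (adjusted p = 0.245, limma). Timp4 overlapped, at adjusted p = 0.176. It passed in 1 of 16 alternatives.

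Of 13 partners and maturation enzymes of ADAM10 and ADAM17, 12 were tested, none rose and Pcsk6 fell. Pcsk6, a proprotein convertase of the furin family, stood at 1.54, 0.617 and 0.713 FPKM in DSS and at 3.94, 4.18 and 3.90 FPKM in control colon. The groups were wide apart, with a log2 fold change of -1.39 ± 0.21 SE (limma, adjusted p = 0.0103), and the call was lost without control 2 or control 3, at adjusted p up to 0.0595. Pcsk5, a related convertase, stood at 2.13, 4.62 and 5.19 FPKM in DSS and at 1.70, 2.03 and 1.72 FPKM in the controls (limma log2 fold change 0.76, SE 0.27, adjusted p = 0.121). Tspan33, a tetraspanin partner of ADAM10, lay at 1.72 to 3.06 FPKM in the DSS samples, while the controls lay at 2.26 to 6.72 FPKM (limma, adjusted p = 0.207). Pcsk7, another convertase, lay at 23.8 to 30.8 FPKM in the DSS samples, above every control at 20.05 to 22.99 FPKM (limma, adjusted p = 0.217). Furin, which removes the prodomain of ADAM10 and ADAM17, stood at 8.58, 6.27 and 8.23 FPKM in DSS and at 6.27, 5.74 and 7.03 FPKM in the controls (limma adjusted p = 0.413). Rhbdf2, the iRhom that carries ADAM17 to the surface of immune cells, stood at 5.30, 4.10 and 6.98 FPKM in DSS and at 4.36, 2.64 and 4.08 FPKM in the controls (limma adjusted p = 0.252). The tetraspanin Tspan15, which directs ADAM10 to cadherins, was the most abundant of 5 tested tetraspanins and overlapped between groups, at 32.95 to 41.3 against 35.3 to 57.8 FPKM (limma adjusted p = 0.356).

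Of 25 genes whose proteins are known to be shed by ADAM10 or ADAM17, 23 were tested, 8 rose and none fell, beside the 6.34% higher and 2.56% lower of all genes tested. Their median log2 fold change was 0.23, beside 0.13 over all genes tested. Il1r2, a decoy receptor of interleukin-1, stood at 17.8, 35.2 and 31.7 FPKM in DSS and at 1.44, 0.317 and 0.666 FPKM in the controls (limma log2 fold change 4.01, SE 0.32, adjusted p = 0.000788). Tnf, the tumour necrosis factor gene, stood at 5.01, 7.59 and 9.80 FPKM in DSS and at 0.438, 0.472 and 0.891 FPKM in the controls (limma log2 fold change 2.37, SE 0.25, adjusted p = 0.00236). All 3 controls of Tnf were under 1 FPKM, so it entered the test through its DSS values alone, and 7 of the other 22 rose. The endothelial adhesion receptor gene Vcam1 had a log2 fold change of 1.87 ± 0.23 SE (limma, adjusted p = 0.00409). These 3 calls held in all 17 alternatives.

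Ereg, Cd44, Cxcl16 and Jag1 also rose, with calls that depended on single samples or settings. Ereg, which encodes the growth factor epiregulin, stood at 37.9, 18.02 and 17.1 FPKM in DSS and at 9.05, 3.51 and 1.97 FPKM in the controls (limma log2 fold change 2.21, SE 0.49, adjusted p = 0.0385). Its call held in 8 of 17 alternatives. Cd44, the hyaluronan receptor, was called in 14 and the chemokine gene Cxcl16 in 13 of 17. Jag1, a Notch ligand, was called in 5 of 16 (limma, adjusted p = 0.0479). Cdh1, the epithelial cadherin that ADAM10 cuts, stood at 201, 123 and 166 FPKM in DSS and at 288, 230 and 246 FPKM in control colon, without overlap (limma log2 fold change -0.66, SE 0.20, adjusted p = 0.0869). Neutrophil markers rose with Il1r2, at the summed levels given for Adam8, and their part in its values was not tested.

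**Figure D5:**
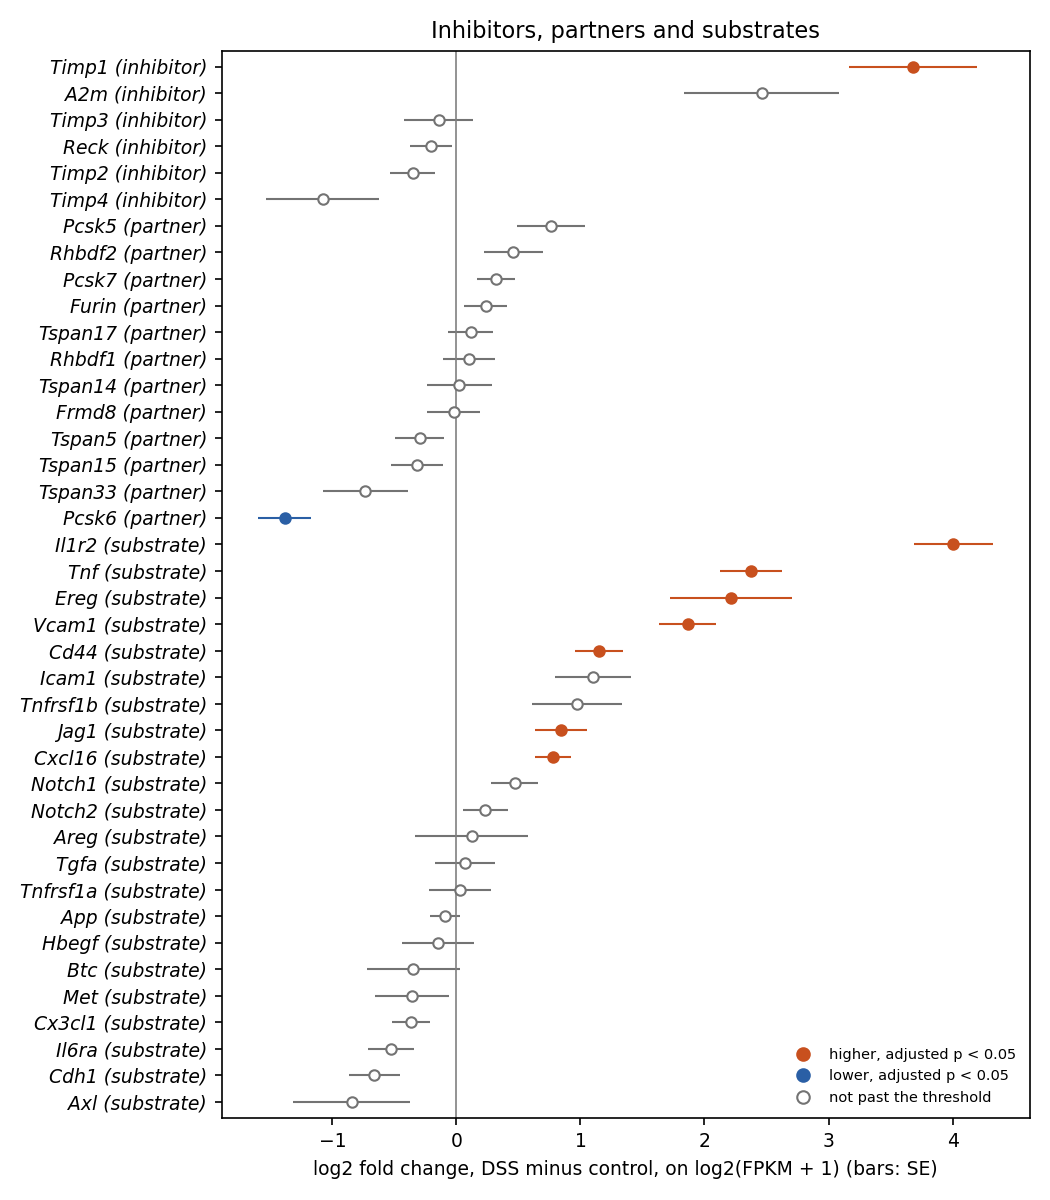
Log2 fold change of the tested inhibitors, partners and shed substrates that are reported, DSS minus control, on the log2(FPKM + 1) scale, with bars of 1 SE and filled points for an adjusted p under 0.05. Timp1 and 7 substrates are filled to the right of 0, and Pcsk6 is filled to the left.

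None of 13 tested matrix substrates and cofactors of ADAMTS proteases passed (limma). Without adjustment 3 had a p under 0.05, namely Col1a2, Vwf and Fbln1, and the median log2 fold change of the list was 0.50. Vcan, the proteoglycan versican that Adamts1 cuts, stood at 4.56, 1.87 and 4.30 FPKM in DSS and at 3.40, 1.83 and 1.42 FPKM in the controls (limma adjusted p = 0.363). Col1a2, a chain of type I collagen, stood at 85.8, 40.7 and 117 FPKM in DSS and at 36.5, 36.6 and 33.5 FPKM in the controls (limma log2 fold change 1.04, SE 0.35, adjusted p = 0.111). Fbln1, the matrix protein fibulin-1 that serves as a cofactor of Adamts1, stood at 20.5, 5.88 and 12.95 FPKM in DSS and at 22.6, 24.7 and 23.5 FPKM in the controls (limma log2 fold change -0.95, SE 0.38, adjusted p = 0.156). DSS 2 was the lowest DSS sample for each of these 3. Vwf, the von Willebrand factor gene, stood at 2.93, 1.28 and 2.35 FPKM in the DSS samples, above every control at 0.865 to 1.11 FPKM (limma, adjusted p = 0.125). Col3a1, the type III collagen gene, stood at 268, 115 and 359 FPKM in the DSS samples, and the controls at 111 to 139 FPKM (limma, adjusted p = 0.231). Acan, the cartilage proteoglycan aggrecan, was listed at 0 in all samples.

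Of 3 related proteins outside the symbol rule none passed. Adamdec1, a secreted relative known from gut macrophages and fibroblasts, stood at 107, 388 and 111 FPKM in DSS and at 67.8, 77.4 and 74.1 FPKM in control colon. It was therefore above every family member in every sample, and DSS 2 was far above the rest. Its log2 fold change was 1.18 ± 0.48 SE (limma, adjusted p = 0.162), and it passed in none of the 17 alternatives. Thsd4, an ADAMTS-like matrix protein gene, lay at 2.16 to 3.13 FPKM in the DSS samples, while the controls lay at 1.62 to 2.07 FPKM (limma, adjusted p = 0.287).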

How the data were processed

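Expression in 3 DSS and 3 control samples of colon was analysed, grouped by title. The labels' protocols name TRIZOL, a poly(A) isolation kit and a second-strand kit that is not directional, so strand was taken as not recorded. The values are FPKM per gene as the authors deposited them, per the file headers. The submitters' processing notes list TopHat2 2.1.1 and mm10. For the FPKM program and annotation, the source is not given in the sources used here.

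Values under 0.1 FPKM did not fall on whole-read steps (largest share of genes in any bin, 3.33%), so read depth could not be recovered. A listed 0 can be a failed estimate, since Gapdh was at 0 in DSS 1. The other Gapdh values varied widely, with 21.4 FPKM for DSS 2 and 36.1 FPKM for DSS 3. They were lower for control 1 (2.00 FPKM), control 2 (0.117 FPKM) and control 3 (0.145 FPKM). Values above 0 can therefore be poor estimates too, and not only low ones. No samples were identical. The test took the 12348 genes that reached 1 FPKM in 3 or more samples. Their log2(FPKM + 1) was modelled by group in limma 3.58.1 (R 4.3.3), using trend and robust options and a two-sided test. Benjamini-Hochberg adjustment covered all of them, at a threshold of 0.05. Changes of low genes are understated on that scale, and ratios of means are of FPKM itself. In simulated DSS and control data (12348 genes, 200 changed), 57.1% of 2-fold and 95.4% of 4-fold changes were found, with 6.72% false calls. These shares cover genes of all levels together, and the main fit called more genes, 783 higher and 316 lower. Recovery at the low FPKM of most members was not tested separately.

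The members, lists and tests were chosen with earlier results of these data known. The rule for names took every tested member, and for each other list the 4 genes of smallest p and those behind a count of 5 or fewer. Named beyond it, after their values were seen, were Ido1, Furin, Rhbdf2, Tspan15, Timp3, Vcan, Acan, Cdh1, Ereg, Cd44, Cxcl16, Jag1 and the overlapping genes. Positions are from GENCODE vM21 on GRCm38, which matched all 57 members, and BLAST+ 2.17.0 was used to find near-identical copies at 95% identity over at least 200 bases. RefSeq promoters matched 31 members. Among the list genes behind a count, 1 is not reported here by name or drawn. Figures used matplotlib 3.10.9 under Python 3.11.15. Alternatives covered moderation, pseudocount, filter, scaling, the replicate number as a block, and each sample left out.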

Additional observations from a re-analysis of the deposited data

How the results depend on the processing

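The 3 rises counted among members became 5 when no filter was used, likewise at a minimum of 0.1 FPKM, where Adam3 and Adamtsl2 joined them. Adam3 was listed at 0 in every control and entered both fits through its DSS values alone. Its call there was therefore partly fixed in advance. The count ranged from 0 to 3 when single samples were left out, 0 without control 2 or control 3, and no member was called lower in any alternative. In fits without 1 sample fewer samples were used, and calls over all genes ranged from 209 to 1165 higher and from 79 to 606 lower. Genes called lower rose to 497 with quantile normalization and 513 with median-of-ratios scaling, from 316. Calls were 71.2% higher in the main fit, 50.8% with median-of-ratios, 51.8% with quantile and 53.8% with upper-quartile scaling. Of members not called, signs turned as follows. Adamts15 gave -0.15 with quantile, -0.0855 with upper-quartile and -0.10 with median-of-ratios scaling, and -0.26 to 0.317 without single samples. Adamts10 gave -0.13, -0.0719 and -0.0860 in the same scalings, and -0.11 to 0.124 without single samples, with -0.0012 without control 2. Without single samples Adamtsl4 gave -0.237 to 0.16, Adam17 -0.448 to 0.0903 and Adamts2 -0.0124 to 0.542. The cause was not tested. Same-numbered samples correlated in their deviations from the group means at 0.0818, 0.129 and 0.00308, so the numbers were not taken to pair samples. With the replicate block, 2 members were called (Adam8 and Adamts1), Adam10 had adjusted p = 0.0561 (limma), and 640 genes were called higher and 255 lower. Each sample correlated best with its own number except DSS 3 and control 3. Depth limits could not be set from FPKM.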
